A study of Mus musculus with 11 samples.

Results

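Immunoglobulin light chain variable segments were the 103 genes of the raw count table whose GENCODE M21 symbol begins with Igkv or Iglv and whose annotated type is an immunoglobulin variable gene. They comprised 100 kappa segments on chromosome 6 and 3 lambda segments on chromosome 16, out of 54232 genes in the table. The members were chosen by symbol, but the group itself was selected on these data, because 1 of its genes, Igkv8-27, had been higher in PKN2 knockout (KO) than in wild-type (WT) tumours. Values of KO against WT tumours are therefore given for the members as a description, and the counts of members that passed a test are printed only beside the same count over all genes.

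The 11 tumours were grown by implanting 1000 TB32048 cells, a carcinoma line from a KPC mouse with an intact Pkn2 gene, into the pancreas of C57BL/6 mice. All hosts were adult female littermates that carried 1 copy of the tamoxifen-inducible Rosa26 CreERT2 allele, and all received tamoxifen. KO hosts (6 tumours, replicates A to F) were Pkn2 fl/fl and WT hosts (5 tumours, replicates A to E) were Pkn2 +/+. Rosa26 drives the recombinase in most cell types, so that the deletion was not specific to fibroblasts or to any other cell type of the host. RNA came from a portion of each tumour and was measured by bulk RNA sequencing, in which more cells of a type and more RNA per cell cannot be told apart. Each tumour is 1 library, and totals ranged from 16294128 to 31121422 counts. The share of ribosomal RNA counts ranged from 0.308% to 0.739% (KO) and from 0.241% to 6.39% (WT), with WT replicate B highest. Levels are given as CPM, the count divided by the effective library size on the usual per-megacount scale. Pkn2 itself stood at 96.5 ± 9.31 CPM in KO and 96.5 ± 34.5 in WT tumours (mean ± SD, n = 6 and n = 5), so that its gene-level count, to which the implanted cells contribute, did not check the genotype labels. Defining carcinoma and fibroblast genes were abundant in both groups, since 8 such genes (Krt8, Krt18, Krt19, Epcam, Col1a1, Col1a2, Dcn and Pdgfrb) summed to between 5555.5 and 10286.2 CPM in every tumour.

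An antibody is built from heavy and light chains, and each B cell makes its light chain from a single rearranged gene, either kappa or lambda. The rearrangement joins a variable segment, which encodes most of the antigen-facing domain, to a short joining segment, upstream of a constant region such as Igkc. B cells carry the receptor on their surface, and plasma cells, which descend from them, secrete the antibody and transcribe its genes at very high levels. A large clone of plasma cells thus adds its RNA to a single segment, whereas many small clones spread it over many segments. Segments are numbered by family, which groups those of similar sequence, and by position in the locus.

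The germline sequence of Igkv8-27, the segment for which the group was chosen, is shown first (GRCm38, chr6:70171809-70172270, minus strand; the last 300 bases of its longest annotated transcript in GENCODE M21, 5′ to 3′). Capitals mark the bases from the codon of the conserved second cysteine to the end of the segment, where rearrangement attaches the joining segment and where the third loop of the antigen-binding site begins.
Igkv8-27: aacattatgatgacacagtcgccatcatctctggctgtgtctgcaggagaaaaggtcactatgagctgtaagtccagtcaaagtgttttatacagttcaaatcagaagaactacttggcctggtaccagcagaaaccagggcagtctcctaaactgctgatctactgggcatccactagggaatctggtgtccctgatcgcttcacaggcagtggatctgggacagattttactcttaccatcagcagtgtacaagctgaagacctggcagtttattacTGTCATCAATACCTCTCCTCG
The last 90 bases of 3 relatives of the same family follow, with the same capitals, to show the letters by which uniquely aligned reads can separate them. They lie on the minus strand at chr6:70143593-70144166 (Igkv8-28), chr6:70340876-70341453 (Igkv8-19) and chr6:70386672-70387252 (Igkv8-16).
Igkv8-28: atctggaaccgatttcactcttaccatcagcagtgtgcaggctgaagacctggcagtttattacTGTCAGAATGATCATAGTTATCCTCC
Igkv8-19: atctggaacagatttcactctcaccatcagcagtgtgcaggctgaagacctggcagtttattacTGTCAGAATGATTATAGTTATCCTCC
Igkv8-16: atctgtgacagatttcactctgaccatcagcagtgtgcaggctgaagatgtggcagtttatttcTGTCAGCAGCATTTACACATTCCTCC
The segments that led the light chain counts of at least 1 tumour, besides Igkv8-16, are shown in the same way. Their genes lie at chr6:67896172-67896642 (Igkv14-126, plus strand), chr6:69648824-69649363 (Igkv4-53, minus strand), chr6:69304834-69305405 (Igkv4-68, minus strand), chr6:70371439-70371993 (Igkv6-17, plus strand), chr6:68302427-68303158 (Igkv2-109, plus strand) and chr16:19085017-19085500 (Iglv1, minus strand).
Igkv14-126: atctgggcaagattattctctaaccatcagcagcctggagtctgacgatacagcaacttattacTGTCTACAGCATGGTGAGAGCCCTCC
Igkv4-53: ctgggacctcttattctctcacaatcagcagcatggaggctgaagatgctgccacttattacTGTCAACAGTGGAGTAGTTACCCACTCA
Igkv4-68: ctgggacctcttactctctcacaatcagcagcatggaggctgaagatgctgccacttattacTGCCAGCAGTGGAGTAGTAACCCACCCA
Igkv6-17: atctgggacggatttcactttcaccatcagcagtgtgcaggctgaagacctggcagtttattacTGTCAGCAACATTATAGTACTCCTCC
Igkv2-109: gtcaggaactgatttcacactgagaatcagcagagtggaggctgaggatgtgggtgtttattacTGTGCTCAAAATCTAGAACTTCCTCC
Iglv1: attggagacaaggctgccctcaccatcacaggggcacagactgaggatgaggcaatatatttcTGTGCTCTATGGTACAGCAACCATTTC

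These genes are short and alike. Exon lengths ran from 338 to 501 bases with a median of 362, and the identity of a segment to its nearest relative among the members had a median of 94.5% and a maximum of 98.7%. All overlapping windows of 50 bases were taken from the transcripts of each segment. Of the 103 segments, 23 had only windows found in no other annotated gene, and in 16 segments fewer than 50% of the windows were their own. The windows are shorter than the study's untrimmed reads, so they do not give the share of reads that were ambiguous. Igkv8-27 was among the more distinct, with 91.6% of its windows its own and an identity of 89.2% to Igkv8-28 and to Igkv8-19. Igkv8-16, with 77.2% identity to Igkv8-27, had 34.7% of windows of its own. It shared the others with a nearby variable gene that has no Igkv symbol (Gm43218), to which 69 counts were assigned over all tumours. Iglv1 and Iglv2 were 96.7% identical, and most Igkv4 segments shared windows with several others of that family, so that counts of these genes may be split between relatives or lost as ambiguous reads. Iglv1 also lies across from an annotated antisense gene, 2010309G21Rik, and Igkv2-137 overlaps a long noncoding gene, Gm42889, on its own strand.

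In terms of breadth, 100 of the 103 segments had at least 1 count in some tumour. Igkv1-131, Igkv1-35 and Igkv8-26 had none in any tumour, which allows a level of up to 0.0883 CPM in the deepest and 0.250 CPM in the shallowest library (3 counts; counting error only). All 100 detected segments had a count in at least 1 KO tumour and 80 had a count in at least 1 WT tumour. Conversely, 66 segments were detected in every KO tumour and 21 in every WT tumour, and those 21 were detected in all 11 tumours. The 20 segments with counts in KO tumours alone included 2 with at least 1 count in all 6 of them, Igkv4-74 and Igkv4-79. Both were singled out after their values were seen, and in KO replicate E they had 2 and 1 counts, fewer than 3. The matching count over all genes was not made. KO pools were also larger, at 1823 to 25919 light chain counts against 581 to 1696 in WT tumours. Nothing is therefore read from these numbers of segments. Igkv4-74 had 65, 39, 126, 39, 2 and 7 counts in KO replicates A to F, which over the group was at least 66.6-fold higher than the floor of 3 counts over all WT libraries. Igkv4-79 had 33, 9, 22, 193, 1 and 11 counts, at least 64.4-fold higher by the same floor. Both belong to the Igkv4 family, with 51.9% and 44.7% of windows of their own, so that reads of relatives may be among these counts.

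KO tumours held 90, 85, 90, 88, 79 and 80 detected segments in replicates A to F (85.3 ± 4.89, mean ± SD, n = 6). WT tumours held 46, 48, 44, 52 and 71 in replicates A to E (52.2 ± 10.9, n = 5). Every KO tumour was above every WT tumour, and WT replicate E, the deepest library, was the nearest to the KO group. The groups remained apart when a segment had to have 10 counts to be called detected, at 45 to 75 segments in KO and 11 to 37 in WT tumours. Part of this gap moved with the number of light chain counts available. Reduced by calculation to the 581 light chain counts of WT replicates B and D, KO tumours were expected to show 64.8, 61.5, 58.7, 59.7, 61.8 and 70.9 segments (62.9 ± 4.44) and WT tumours 42.2, 48, 41.1, 52 and 59.7 (48.6 ± 7.60). On this scale the groups overlapped slightly, because WT replicate E, at 59.67, lay above KO replicate C, at 58.67. Igkv1-110, Igkv10-96 and Igkv3-12 are examples of the segments found in every tumour, and they come from different families.

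**Figure D1:**
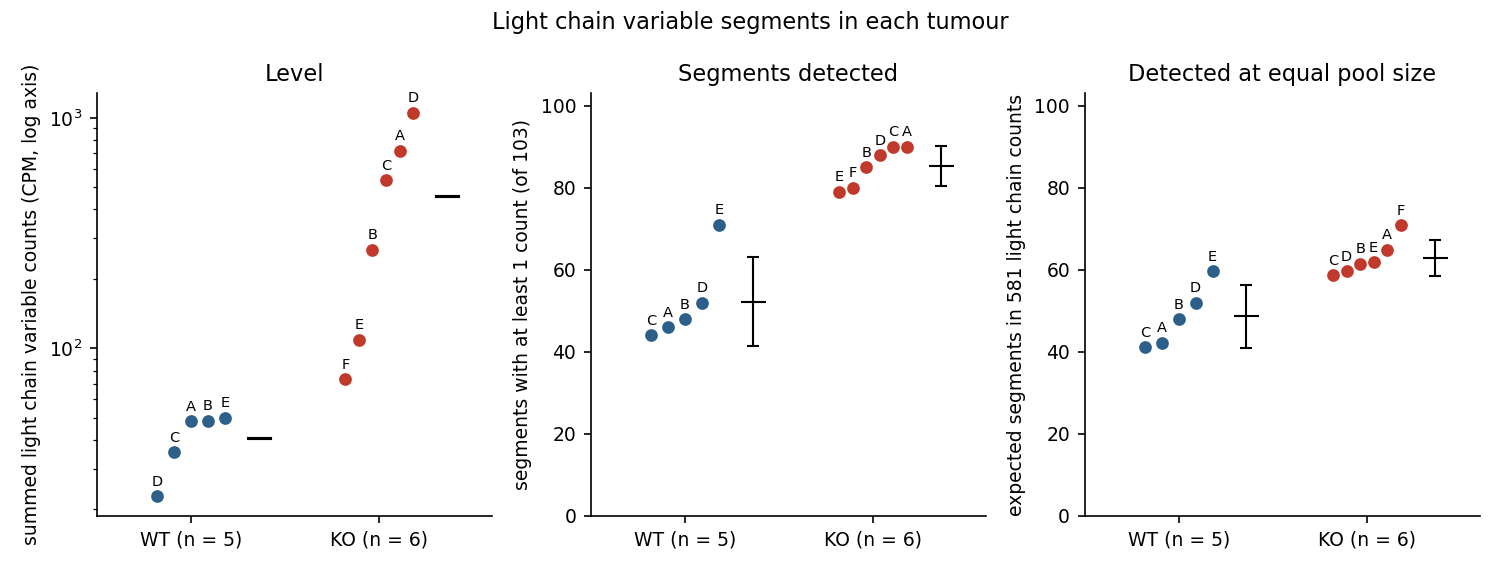
Light chain variable segments by tumour, with WT tumours in blue (n = 5) and KO tumours in red (n = 6) and letters naming replicates, sorted by value within a group. The left panel gives the summed level in CPM on a log axis with a bar at the mean, the middle panel the number of the 103 segments with at least 1 count, and the right panel the number expected in 581 light chain counts (bars in both, mean ± SD). KO tumours lie above WT tumours in the left and middle panels, whereas WT replicate E lies among the KO tumours in the right panel.

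Summed over the 103 segments, light chain variable counts were 20588, 7641, 15426, 25919, 2682 and 1823 in KO replicates A to F and 1115, 581, 720, 581 and 1696 in WT replicates A to E. Scaled to library size, the summed level was 720, 268, 536, 1052.2, 109 and 73.4 CPM in KO tumours (460 ± 383, mean ± SD) and 48.3, 48.4, 35.3, 22.7 and 49.9 CPM in WT tumours (41.0 ± 11.8), an 11.2-fold higher mean in the KO group. All 6 KO tumours were above all 5 WT tumours. The KO tumours themselves spanned a wide range, and replicates E and F were nearer to the WT tumours than to KO replicate D. The 60 pseudogene segments of the same loci added 35 counts in all to the KO tumours and none to the WT tumours.

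The constant region genes were compared with the variable segments. Igkc, the kappa constant region, had 30639, 11048, 24889, 34731, 3314 and 2179 counts in KO replicates A to F and 2546, 909, 4994, 802 and 1995 in WT replicates A to E, and the groups overlapped at KO replicates E and F. Per count of Igkc, kappa segments had 0.570 to 0.780 counts in KO tumours (0.681 ± 0.0812). In WT tumours the ratios were 0.393, 0.514, 0.0635, 0.507 and 0.807 in replicates A to E (0.457 ± 0.268), a range that included all KO values. WT replicate C stood apart with 317 kappa variable counts beside 4994 Igkc counts, so that the assigned segments accounted for little of its kappa RNA. Expressed per count of Igkc, the whole pool was 1.30-fold higher in the mean of KO tumours than in that of WT tumours, with overlap, in place of the 11.2-fold difference in CPM. Of the 4 light chain constant genes, none passed edgeR's adjusted p of 0.05, 3 were higher at an unadjusted p under 0.05, and DESeq2 called 3 higher. Over all genes, 8.57% were higher at an unadjusted p under 0.05 by edgeR, and DESeq2 called 3.21% higher. Iglc2, which joins to lambda segments, showed the smallest p of these (log2 fold change 2.60, SE 0.46, adjusted p = 0.0663 by edgeR), whereas Iglc1 had a lower mean in KO (6.04 ± 4.57 CPM) than in WT tumours (14.9 ± 26 CPM). It had 1246 counts in WT replicate C against 28 to 90 in the other WT tumours.

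Other B lineage genes gave the setting for these levels. In the 15-gene B cell list, none passed edgeR's adjusted p, 14 had a higher estimate with an unadjusted p under 0.05, and DESeq2 called 13 higher, with a median log2 fold change of 2.05 against a median of -0.03 over all 16536 genes tested. For every list here and in the next paragraph, the shares over all genes were 8.57% (edgeR, unadjusted) and 3.21% (DESeq2) higher. All lists were chosen with earlier results of these data known. Cd79a, the signalling chain of the B cell receptor, stood at 21.4 ± 9.03 CPM in KO and 3.41 ± 2.62 in WT tumours (log2 fold change 2.63, SE 0.48, adjusted p = 0.0663 by edgeR). Ms4a1, which encodes the B cell surface protein CD20, stood at 11.6 ± 5.52 and 1.73 ± 1.85 CPM (log2 fold change 2.70, SE 0.60, adjusted p = 0.0786 by edgeR). The summed list ranged from 119 to 260 CPM in KO and from 49.2 to 124 CPM in WT tumours, and none of its genes was at 0 in all tumours. Of 9 heavy chain constant and joining genes, 0 were called by edgeR, 7 were higher at an unadjusted p under 0.05 and DESeq2 called 5. In CPM, Ighm and Ighd, the constant regions of IgM and IgD, did not overlap between the groups, beside 1.59% of all genes tested. For Ighd the gap was narrow, with 9.93 CPM in KO replicate B and 9.10 CPM in WT replicate E. Of 10 plasma cell genes, 0 were called by edgeR, 3 were higher and 1 lower at an unadjusted p under 0.05, and DESeq2 called 1 higher. That gene was Mzb1, a chaperone of antibody-secreting cells, at 10.7 ± 8.96 and 2.20 ± 1.51 CPM (log2 fold change 2.28, SE 0.72, adjusted p = 0.107 by edgeR). Besides Mzb1, the higher genes were Derl3 (1.455, SE 0.54) and Irf4 (0.89, SE 0.34). The lower gene was Fkbp11 (log2 fold change -0.784, SE 0.29, adjusted p = 0.132 by edgeR). The estimates of Xbp1 (-0.28, SE 0.14) and Eaf2 (-0.37, SE 0.49) were also below 0. The median log2 fold change of the plasma cell genes tested was 0.38. The list's sum was 753 to 1020.5 CPM in KO and 697 to 887 CPM in WT tumours, most of it from Sdc1 and Xbp1. Over all context genes of these and the following lists, 62 were tested and edgeR called 0. Without WT replicate D it called 12 higher and 1 lower, beside 203 higher and 651 lower over all genes. Without WT replicate E it called 24 higher and 1 lower, beside 608 higher and 1248 lower over all genes. The contribution of B cell and plasma cell numbers to the level of the segments was not tested.

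Of 6 genes of B cell precursors and recombination, 2 were tested and 0 were called by edgeR. Vpreb3 was higher and Vpreb1 lower at an unadjusted p under 0.05 and by DESeq2, at 1.42 ± 0.694 (KO) and 0.413 ± 0.422 CPM (WT) for Vpreb3 and 0.308 ± 0.0980 (KO) and 1.03 ± 0.876 CPM (WT) for Vpreb1. The recombinase genes were at or near 0. Rag1, a subunit of the recombinase, had 4 counts in KO replicate F and none elsewhere, and Rag2 had 2 counts in WT replicate A and none elsewhere. Igll1, a surrogate light chain gene of precursor B cells, had 1 count in KO replicate A and 2 in WT replicate B. Among 9 T cell genes none was called by edgeR or DESeq2 and none had an unadjusted p under 0.05 with edgeR. Of 7 genes of lymph node stroma and follicles, 0 were called by edgeR, whereas 2 were higher at an unadjusted p under 0.05 and by DESeq2: Cxcl13, a chemokine that attracts B cells (24.6 ± 13.4 and 6.12 ± 2.88 CPM), and its receptor Cxcr5 (3.74 ± 1.62 and 1.01 ± 0.886 CPM). Ccl21a, a chemokine of lymph node stroma, averaged 14.6 ± 29.0 CPM (KO) and 46.9 ± 40.2 CPM (WT), with overlap. Of the 8 carcinoma and stroma genes, 0 were called by edgeR or DESeq2 and 3 were lower at an unadjusted p under 0.05. How far lymph node or splenic tissue in a tumour portion contributed was not tested.

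By segment, 52 of the 103 members passed edgeR's expression filter and 51 did not. A segment can pass through its KO counts alone, so that the 52 do not stand for all members. Their log2 fold changes of KO over WT were all above 0, from 0.76 (Igkv17-127) to 10.05 (Igkv8-16), with a median of 3.75. Of the 52, edgeR called 1 at an adjusted p under 0.05, Igkv8-27, beside 0.0181% of all genes tested called higher. At an unadjusted p under 0.05, 44 were higher and 0 lower, beside 8.57% of all genes tested. DESeq2 called 49 of the 69 members with an adjusted p, all of them higher, beside 3.21% of all genes. With no expression filter, edgeR called 10 of 100 members, beside 0.131% of all genes. In 14 of the 52 the CPM values of KO and WT tumours did not overlap, beside 1.59% of all genes tested. Leaving out 1 tumour gave 7 edgeR calls without KO replicate F, 22 without WT replicate D, 36 without WT replicate E and 0 without any other. Over all genes, those fits called 30, 203 and 608 higher and 2, 651 and 1248 lower, beside 3 higher and 0 lower with all tumours. Since the group was selected on this contrast, nothing is read from these counts. Only Igkv4-90 had a lower mean in KO tumours, at 0.0940 CPM against 0.103 CPM, with at most 9 counts in any tumour.

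Igkv8-27 had 133, 208, 81, 242, 47 and 36 counts in KO replicates A to F and 0, 4, 2, 1 and 3 counts in WT replicates A to E. Every KO tumour was above every WT tumour by a wide margin. The means were 4.66 ± 3.31 CPM and 0.112 ± 0.130 CPM, and the log2 fold change was 5.56 (SE 0.79). Yet it was a minor segment, since it held 0.646%, 2.72%, 0.525%, 0.934%, 1.75% and 1.98% of the light chain variable counts of KO replicates A to F. In WT tumours its share was 0%, 0.689%, 0.278%, 0.172% and 0.177%. WT replicate B was thus above KO replicates A and C on this scale (1.43 ± 0.866% and 0.263 ± 0.258%, KO and WT), and the groups overlapped. Per kilobase of exon its mean level over the 11 tumours was 7.20 CPM. Within the Igkv8 family it held 2.76% to 49.1% of KO counts and 0% to 20% in WT replicates.

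The 10 Igkv8 segments behaved unevenly. Igkv8-16 had 4292, 53, 170, 2005, 329 and 3 counts in KO replicates A to F and 4 counts in WT replicate D, with none in the other WT tumours. KO replicate F thus had fewer counts than WT replicate D, and the log2 fold change of 10.05 had the largest SE of the named segments (1.96). Igkv8-28, with Igkv8-19 the nearest relative of Igkv8-27 in sequence, had 66, 44, 16, 21, 8 and 22 counts in KO and 0, 0, 0, 4 and 3 in WT tumours, without overlap. Igkv8-24 had 61, 42, 75, 404, 18 and 25 counts in KO and 0, 9, 6, 1 and 7 in WT tumours, and Igkv8-21 had 52, 6, 12, 339, 18 and 29 against 0, 0, 1, 4 and 11. Igkv8-30 had 86, 64, 96, 164, 77 and 12 against 6, 21, 0, 0 and 10. In CPM the groups overlapped at their edges for Igkv8-24, Igkv8-21 and Igkv8-30. Igkv8-19, which did not pass the filter, had 134, 7, 35, 49, 5 and 8 counts against 17, 0, 1, 0 and 5. Igkv8-18 and Igkv8-34 reached at most 11 counts, and Igkv8-26 had none.

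**Figure D2:**
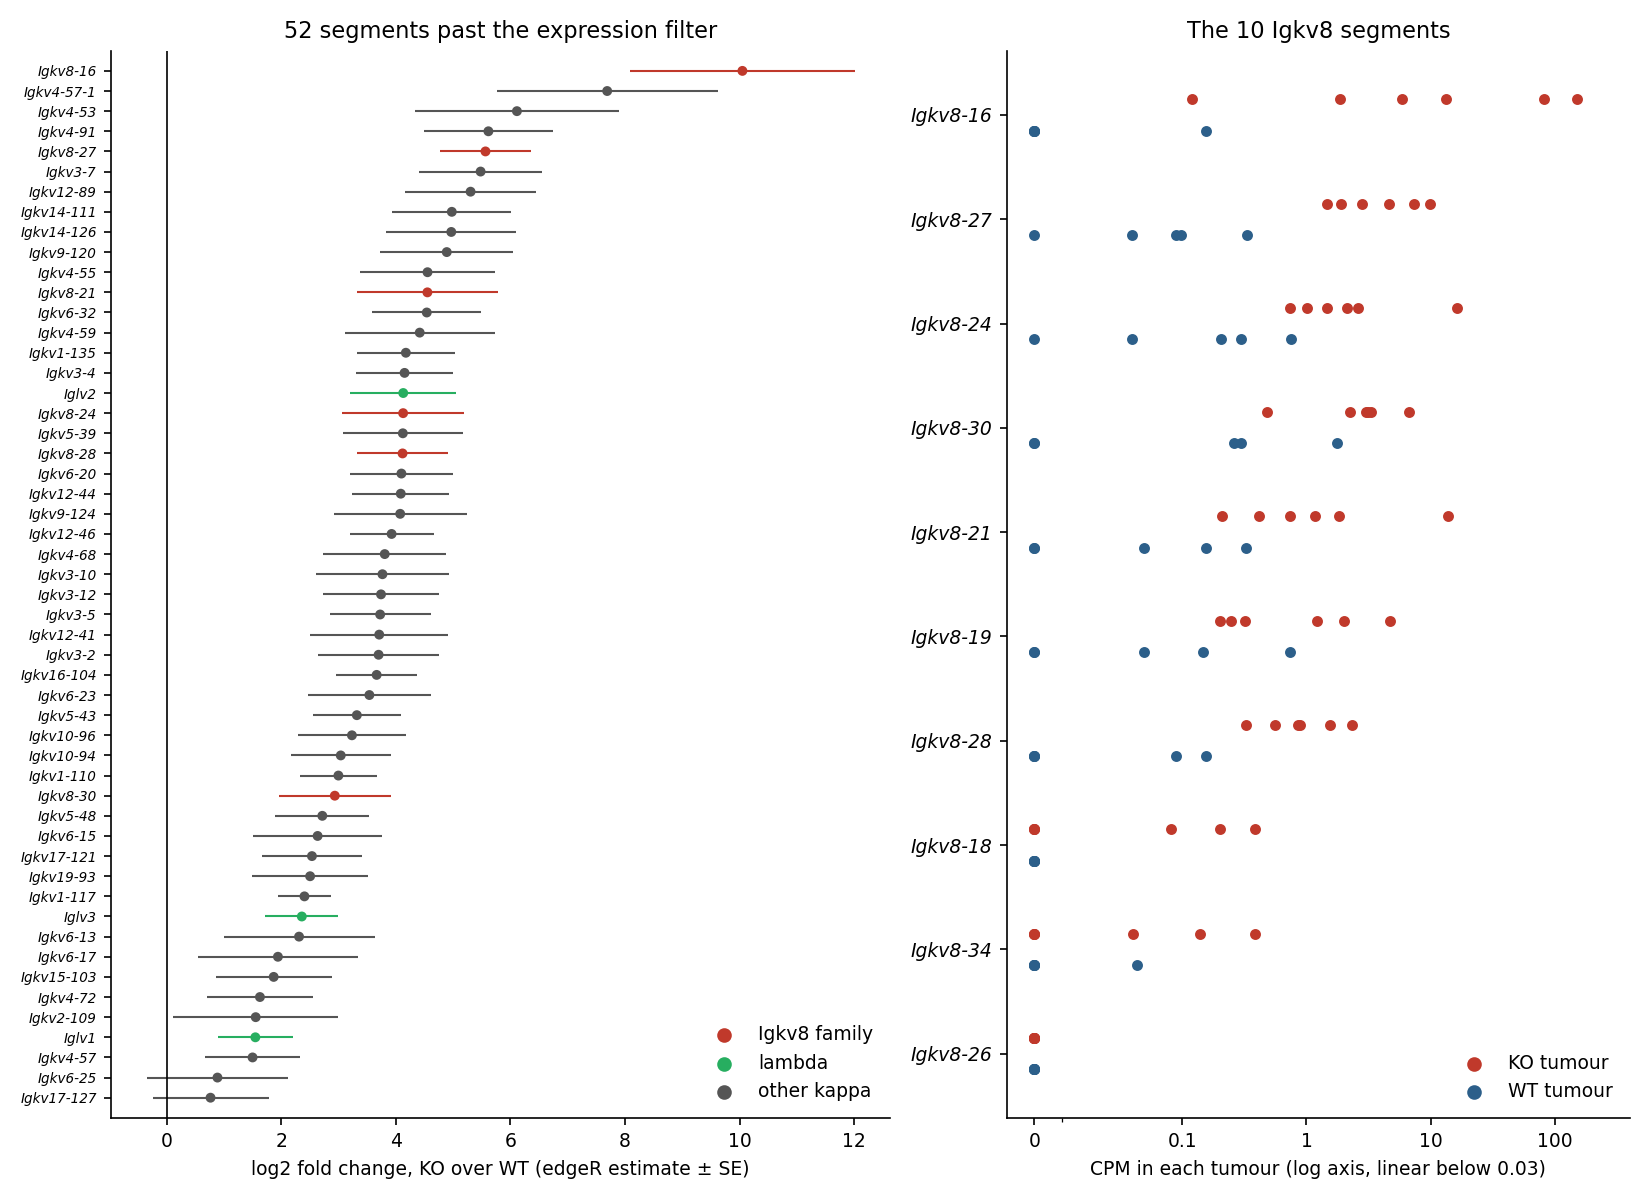
Left, log2 fold change of KO over WT tumours with its SE for the 52 segments that passed the expression filter, from edgeR, with Igkv8 segments in red, lambda segments in green and other kappa segments in grey. Right, CPM of the 10 Igkv8 segments in each tumour, KO in red and WT in blue, on an axis that is logarithmic above 0.03 CPM. All 52 estimates lie above 0, from 0.76 to 10.05, and Igkv8-27 and Igkv8-28 are the Igkv8 segments whose groups do not overlap.

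Per kilobase of exon, the highest mean levels over the 11 tumours were those of Igkv14-126 (117 CPM per kilobase), Igkv8-16 (60.7), Iglv1 (43.3) and Igkv4-53 (36.8). Their counts were uneven over the tumours. Igkv14-126 had 3237, 1591, 3613, 3209, 529 and 21 counts in KO replicates A to F and 84, 74, 2, 9 and 71 in WT replicates A to E, and KO replicate F fell among the WT tumours. Igkv4-53 had 81, 20, 4046, 36, 10 and 23 counts in KO and 3, 4, 6, 3 and 27 in WT tumours, so that KO replicate C alone carried its mean. Igkv4-57-1 had 1796 counts in KO replicate D and 2 to 78 in the other KO tumours, and 0 to 5 in WT tumours. Igkv2-109 had 1136 counts in KO replicate D and 409 in WT replicate E, beside 7 to 124 in the other KO tumours and 0, 2, 57 and 5 in WT replicates A to D.

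Among the other segments named by level or fold change, Igkv14-111 and Igkv4-91 kept the groups apart. Igkv14-111 had 522, 83, 178, 979, 26 and 88 counts in KO tumours and 24, 1, 1, 6 and 13 in WT tumours. These counts scaled to 11.9 ± 14.9 and 0.358 ± 0.404 CPM. Igkv4-91 had 460, 23, 167, 244, 30 and 32 counts against 2, 6, 0, 0 and 4. For Igkv9-120 (12 to 1382 counts in KO, 3 to 23 in WT tumours), Igkv4-59 (33 to 1490 and 0 to 49) and Igkv6-15 (16 to 1192 and 1 to 90) the groups overlapped. The smallest fold changes belonged to segments that single WT tumours also used. Igkv17-127 had 8 to 91 counts in KO tumours and 12, 59, 3, 0 and 11 in WT tumours, and Igkv6-25 had 11 to 322 against 158, 25, 0, 3 and 0. Igkv4-57 had 26 to 94 against 4, 0, 1, 69 and 20.

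The share of the pool taken by each segment described its evenness within a tumour. The leading segment was Igkv8-16 in KO replicate A (20.9%, 95% Wilson interval 20.3% to 21.4%), Igkv14-126 in KO replicate B (20.8%, 19.9% to 21.7%), Igkv4-53 in KO replicate C (26.2%, 25.5% to 26.9%), Igkv14-126 in KO replicates D (12.4%, 11.99% to 12.8%) and E (19.7%, 18.3% to 21.3%), and Igkv4-68 in KO replicate F (8.39%, 7.21% to 9.76%). In WT tumours it was Igkv6-17 in replicate A (20.9%, 18.6% to 23.4%), Iglv1 in replicates B (18.1%, 15.2% to 21.4%), C (54.2%, 50.5% to 57.8%) and D (29.3%, 25.7% to 33.1%), and Igkv2-109 in replicate E (24.1%, 22.1% to 26.2%). These intervals cover counting error only. Thus 7 different segments led the 11 tumours. No segment led in both groups, although Igkv14-126 came next after Iglv1 in WT replicate B (12.7%).

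The leading share was 18.1 ± 6.49% in KO and 29.3 ± 14.5% in WT tumours, with overlap. Among kappa segments alone it was 19.4 ± 7.13% and 19.9 ± 4.19%, so that the higher WT mean came with the lambda segment Iglv1. The 5 leading segments together held 45.8 ± 11.5% of the pool in KO and 59.8 ± 11.2% in WT tumours. The number of segments needed to hold 50% of the pool was 5, 7, 3, 8, 6 and 13 in KO replicates A to F and 4, 5, 1, 4 and 6 in WT replicates A to E. KO replicate F had the most even pool by this count and by Shannon diversity (3.85, natural log), and WT replicate C the least even (1 segment and 2.09). WT replicate C had 317 kappa variable counts beside 4994 Igkc counts, so its evenness and leading share describe its assigned counts alone. Without it, the difference in mean leading share was -5.02 percentage points, in place of -11.2. KO replicate F also had the smallest light chain pool of the KO group. No segment led in all KO tumours, although Igkv14-126 ranked first or second in KO replicates A to E (12.4% to 23.4%). It held 1.15% in KO replicate F.

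**Figure D3:**
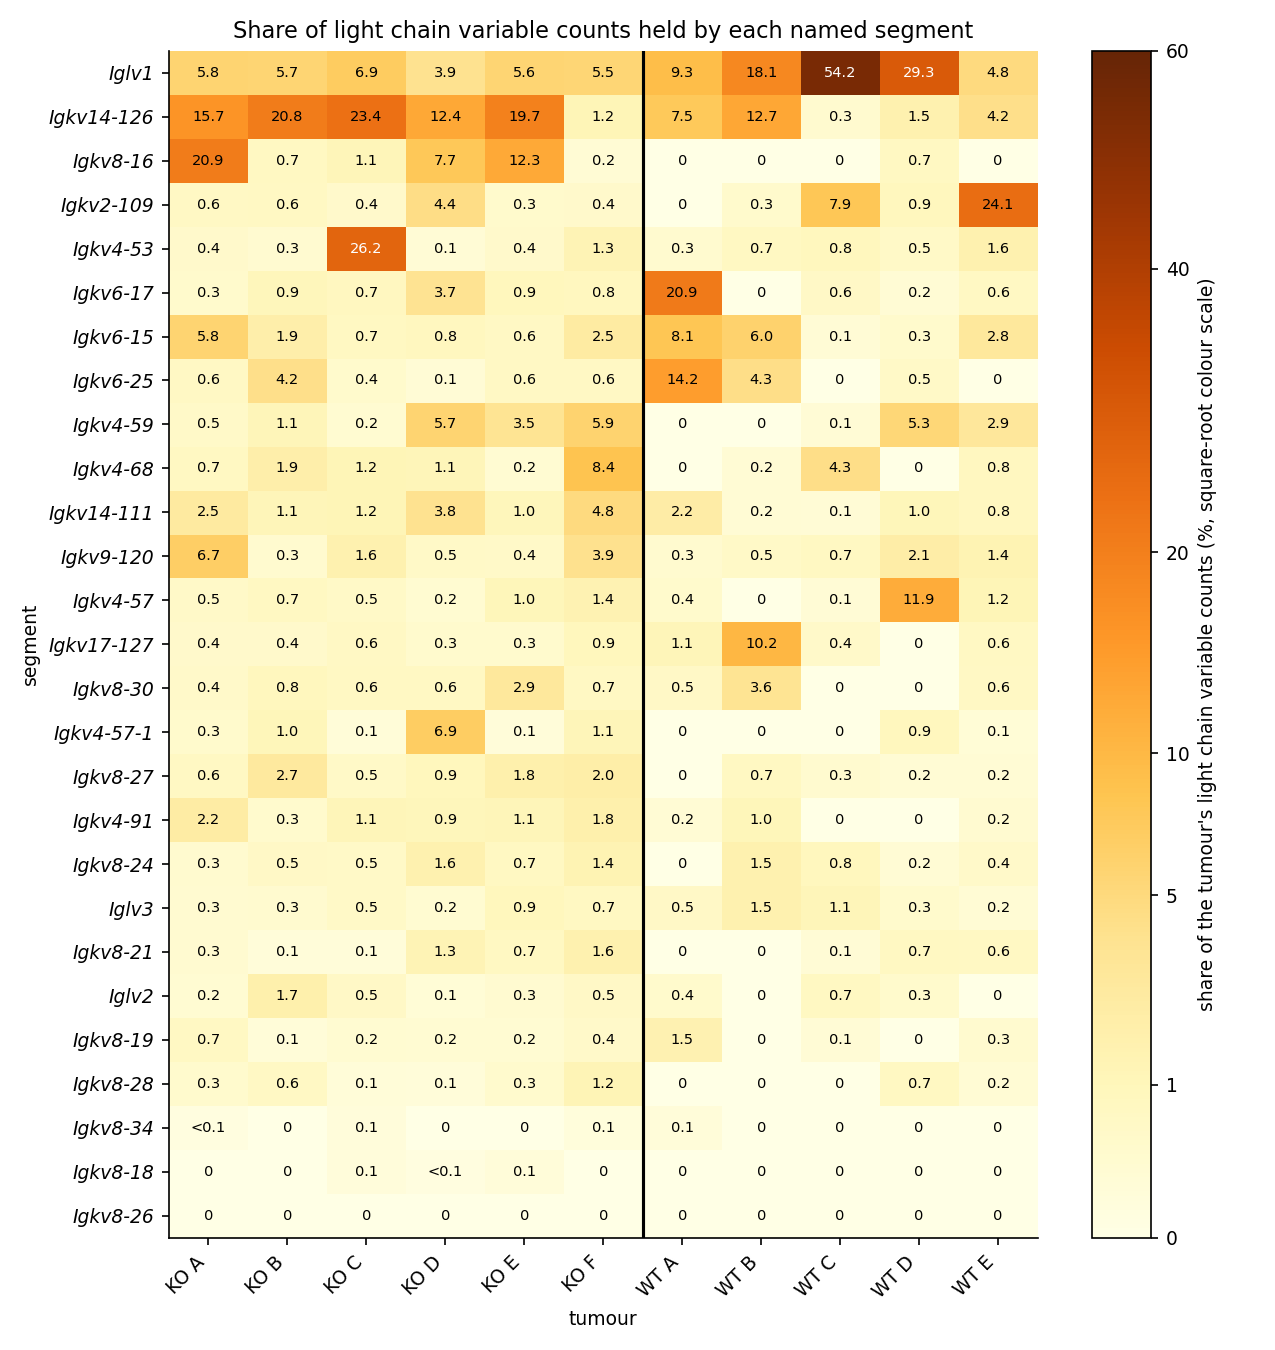
Share of each tumour's light chain variable counts (%) held by the 27 named segments, as numbers and on a square-root colour scale, with segments in rows in order of mean share and the 11 tumours in columns, KO to the left of the line. Iglv1 reaches 54.2% in WT replicate C, Igkv14-126 lies between 12.4% and 23.4% in KO replicates A to E, and segments such as Igkv4-53 (26.2% in KO replicate C) are high in a single tumour.

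Lambda segments took different shares of the pool. They held 6.22%, 7.66%, 7.97%, 4.20%, 6.79% and 6.75% in KO replicates A to F (6.60 ± 1.34%) and 10.2%, 19.6%, 56.0%, 30.0% and 5.01% in WT replicates A to E (24.2 ± 20.2%). The 4 highest shares were those of WT replicates A to D, and WT replicate E lay within the KO range. Most of it was Iglv1, with 1189, 433, 1072, 1000, 151 and 100 counts in KO and 104, 105, 390, 170 and 82 in WT tumours. The level of Iglv1 in CPM overlapped between the groups. Its larger share in WT replicates B, C and D stood beside 467, 317 and 407 kappa variable counts. WT replicate C also had 4994 Igkc counts and 1246 Iglc1 counts, the most Iglc1 counts of any tumour. The lambda share of that tumour thus describes its assigned counts alone. The cause of the larger shares was not tested. Among constant region counts, the lambda genes Iglc1, Iglc2 and Iglc3 made up 20.4% in WT replicate C and 12.6% in each of WT replicates B and D. The same share was 3.38% and 5.49% in WT replicates A and E, within the 1.70% to 8.06% of KO tumours. Iglv2 had 40, 131, 83, 33, 7 and 10 counts in KO and 4, 0, 5, 2 and 0 in WT tumours, and Iglv3 had 52, 21, 75, 55, 24 and 13 against 6, 9, 8, 2 and 3.

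By family, the members fell into 21 groups, counting the lambda segments as 1. Igkv14 held 18.1 ± 6.44% of the pool in KO and 6.27 ± 5.04% in WT tumours, and its lowest KO value (6.42%, replicate F) was below the values of WT replicates A (9.87%) and B (12.9%). Igkv8 held 23.4%, 5.55%, 3.29%, 12.5%, 18.8% and 7.46% in KO replicates A to F (11.8 ± 7.94%) and 2.15%, 5.85%, 1.39%, 2.41% and 2.30% in WT replicates A to E (2.82 ± 1.74%). WT replicate B was above KO replicates B and C, and in KO replicates A, D and E most of the family's share was Igkv8-16. Igkv4, the largest family with 26 segments, held 18.7 ± 10.98% and 10.3 ± 8.62%. The means of Igkv6 (8.40 ± 2.89% and 16.4 ± 17.1%) and Igkv2 (1.22 ± 1.57% and 6.71 ± 10.3%) were higher in WT tumours, and the groups overlapped. The highest values were those of WT replicates A (45.02%) and B (19.6%) for Igkv6 and of WT replicates E (24.1%) and C (8.06%) for Igkv2. Igkv1 (6.44 ± 2.99% and 7.79 ± 3.47%) and Igkv3 (4.94 ± 0.652% and 3.59 ± 2.00%) were close to one another in both groups.

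**Figure D4:**
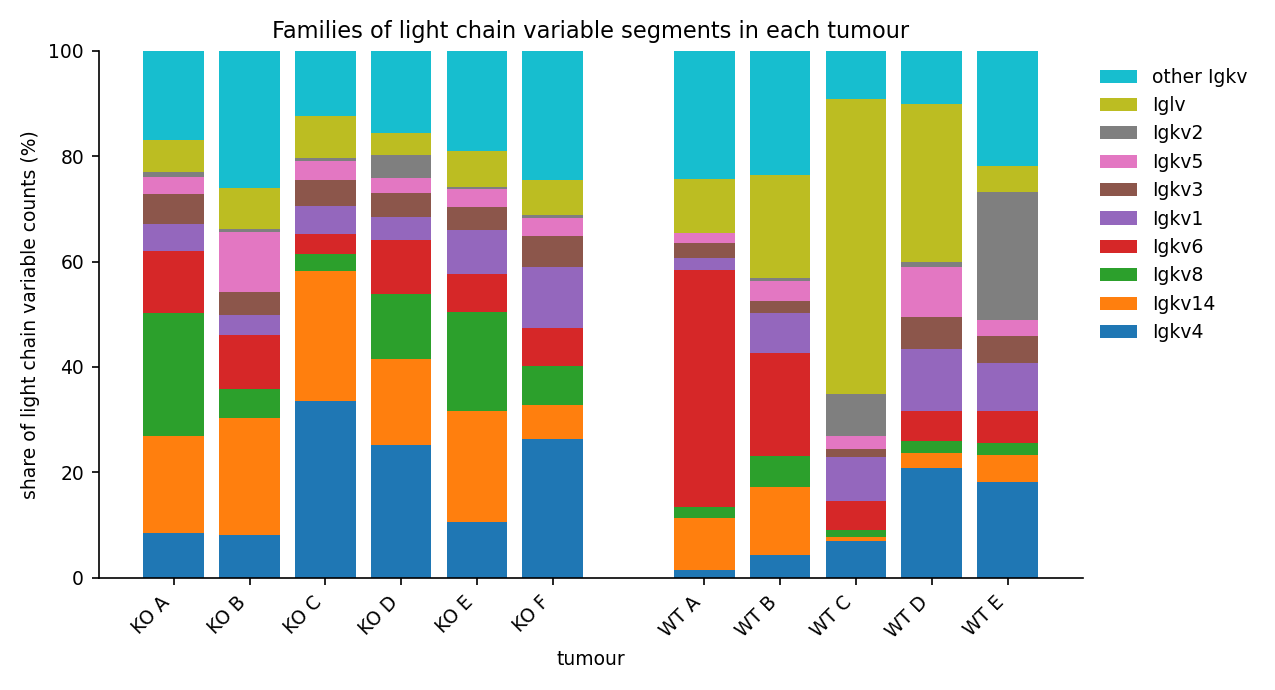
Share of light chain variable counts (%) by segment family in each tumour, as stacked bars that add to 100%, with KO replicates A to F on the left and WT replicates A to E on the right, and families outside the 9 listed joined as other Igkv. Igkv8 (green) is widest in KO replicate A at 23.4%, Igkv14 (orange) in KO replicate C at 24.6%, lambda segments (olive) in WT replicate C at 56.0%, Igkv6 (red) in WT replicate A at 45.02% and Igkv2 (grey) in WT replicate E at 24.1%.

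Position in the kappa locus was examined as a feature that the choice of members did not use. The 100 kappa segments lie 22.3 to 3170.2 kilobases from Igkc; 38 share its strand and join by deletion of the DNA between, and 62 lie on the opposite strand and join by inversion. Segments of the opposite strand held 57.5%, 49.3%, 53.6%, 58.9%, 50% and 61.6% of kappa counts in KO replicates A to F (55.1 ± 5.01%). In WT replicates A to E they held 27.3%, 46.0%, 47.0%, 58.2% and 50.5% (45.8 ± 11.4%). The groups overlapped, and WT replicate A, in which Igkv6-17 and Igkv6-25 together dominated, was the lowest. The segment at the midpoint of the kappa counts lay 1118.6 to 1891.1 kilobases from Igkc in KO and 510.5 to 2094.0 kilobases in WT tumours. This midpoint does not describe how widely the counts of a tumour were spread over the locus.

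Likeness of segment usage between tumours was described by the Morisita-Horn index, which is 1 where segments have the same shares and 0 where no segment is shared. It is less affected by rare segments than a count of shared segments is. The 15 pairs of KO tumours had a median of 0.566 (0.215 to 0.845), the 10 pairs of WT tumours a median of 0.314 (0.190 to 0.785), and the 30 pairs across groups a median of 0.291 (0.164 to 0.637). KO replicates A and E were the most alike, sharing Igkv14-126 and Igkv8-16 as their leading pair. Among WT tumours, replicates C and D were the most alike, both led by Iglv1. KO replicate F was unlike the other KO tumours (0.215 to 0.471), and WT replicate B resembled KO replicates B (0.637) and E (0.602) more than it resembled WT replicates A and E. Pairs share tumours and the WT pools hold few counts, so that the medians are a description.

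**Figure D5:**
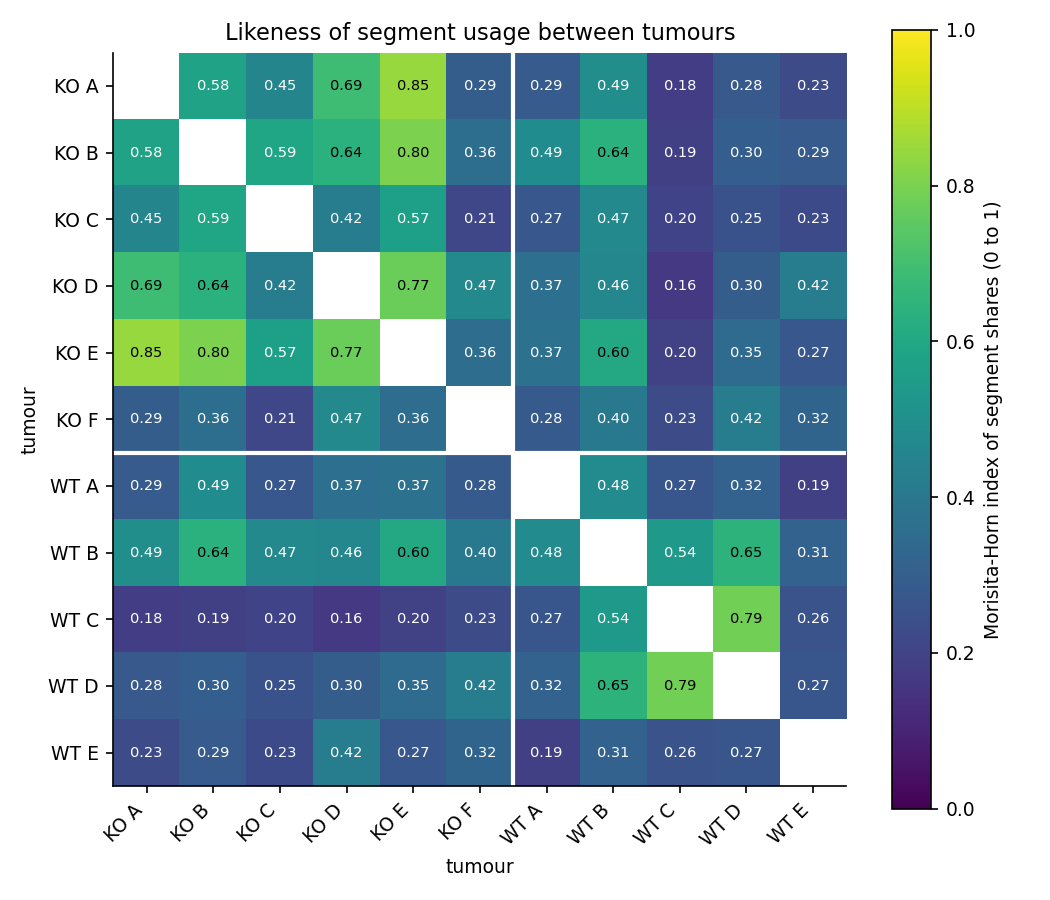
Morisita-Horn index of light chain variable segment shares for each pair of the 11 tumours (0, nothing shared; 1, equal shares), in a symmetric grid with white lines between KO and WT tumours. The highest values are 0.845 for KO replicates A and E, 0.802 for KO replicates B and E and 0.785 for WT replicates C and D, and the lowest is 0.164 for KO replicate D with WT replicate C.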

How the data were processed

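RNA from a portion of each of 11 tumours (6 KO, 5 WT, grouped and lettered by sample title) was sequenced from directional libraries. Per the study's methods and the submitters' processing notes, the authors trimmed paired-end reads with Trimmomatic, aligned them to the mm10 genome with HISAT2 (2.1.0) in strand-specific mode, and counted uniquely aligned exonic reads per gene with HTSeq (0.11.2). Reads that match several segments equally well are dropped by this rule, and reads that cross a rearranged junction or carry somatic mutations differ from the genome and may be lost. The share lost cannot be seen in the counts. The deposited tables hold raw counts, which were used throughout, and normalised values, a signal that equals the raw count divided by 1 factor per sample, which was used as an alternative scaling.

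Symbols, gene types and coordinates (1-based, GRCm38) came from GENCODE M21, and 54079 of 54232 identifiers matched a symbol. Printed sequences were taken from its transcripts. CPM values used edgeR's TMM library sizes. Genes were tested with edgeR's quasi-likelihood test (4.0.16, R 4.3.3; filterByExpr, no covariates, Benjamini-Hochberg adjustment over 16536 genes, threshold 0.05), and with DESeq2 (1.42.0) as an alternative. Each SE was obtained from the fold change estimate and its F statistic. Expected segment numbers at equal pool size used analytic rarefaction. Segment shares have 95% Wilson intervals, which cover counting error only, since reads carried no molecular identifiers. On these library sizes 3 counts are 0.0883 to 0.250 CPM. Alternatives comprised other scalings, filters and detection limits, a ribosomal RNA covariate, pseudogene segments, leaving out tumours, and a replicate block without KO replicate F.

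The members and gene lists were chosen with earlier results of these data known. Named segments were Igkv8-27, the 10 of highest mean CPM, the leader of each tumour, those called, the 5 highest and 5 lowest log2 fold changes among those past the filter, and all Iglv and Igkv8 segments.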

Additional observations from a re-analysis of the deposited data

Results flagged for a closer look

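In 20 of the 65 groups examined (7 measures of the whole pool and the shares of the 27 named segments, in KO and in WT tumours), 1 tumour lay far from the others by Dixon's test; chance gives about 1 in 20, a rate that does not hold here, because several segments were named for being high in 1 tumour, as its leader or by mean level. All of these were shares of single segments, and none was a measure of the whole pool. The tumour named had the highest share in each case. In KO tumours they were Igkv4-53 in replicate C (26.2%, next highest 1.26%), Igkv4-68 in replicate F (8.39%, next 1.87%), Igkv4-57-1 in replicate D (6.93%, next 1.10%), Igkv6-15 in replicate A (5.79%, next 2.47%), Igkv2-109 in replicate D (4.38%, next 0.628%), Igkv6-25 in replicate B (4.21%, next 0.603%), Igkv6-17 in replicate D (3.74%, next 0.942%), Igkv8-30 in replicate E (2.87%, next 0.838%) and Iglv2 in replicate B (1.71%, next 0.549%). In WT tumours they were Igkv6-17 in replicate A (20.9%, next 0.649%), Igkv4-57 in replicate D (11.9%, next 1.18%), Igkv17-127 in replicate B (10.2%, next 1.08%), Igkv4-68 in replicate C (4.31%, next 0.767%), Igkv8-30 in replicate B (3.61%, next 0.590%), Igkv8-19 in replicate A (1.52%, next 0.295%) and Igkv4-91 in replicate B (1.03%, next 0.236%). The others, Igkv4-57-1 in replicate D (0.861%), Igkv8-28 in replicate D (0.688%), Igkv8-16 in replicate D (0.688%) and Igkv8-34 in replicate A (0.0897%), rested on 5, 4, 4 and 1 counts.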

How the results depend on the processing

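The number of segments that edgeR called, 1 as reported, was 1 with library totals, with at least 10 counts in 5 tumours, with the ribosomal RNA covariate and with the replicate block, 10 with no expression filter, 49 with DESeq2 and 0 with WT replicates D and E alone (43 at an unadjusted p under 0.05). Leaving out 1 tumour at a time gave 0 to 36 calls: 7 without KO replicate F, 22 without WT replicate D, 36 without WT replicate E and 0 otherwise. Over all genes, 3 were called higher as reported, 13 with library totals and 3 with at least 10 counts in 5 tumours. That number was 2 with the covariate, 7 with the replicate block, 39 with no expression filter, 595 with DESeq2 and 4 with WT replicates D and E alone. It was 30 without KO replicate F, 203 without WT replicate D, 608 without WT replicate E and 0 without any other tumour. Igkv8-27 kept a log2 fold change of 5.20 to 6.38 in all fits. Under the replicate block, which left out KO replicate F, the segment called was Igkv8-16, not Igkv8-27. Without KO replicate F and without the block, edgeR called both (adjusted p = 0.0253 and 0.0109). Deviations from the group means correlated at -0.135 to 0.118 between KO and WT tumours of the same letter, A to E. KO replicate F has no partner. Tumours of unlike letters were not compared, so a weak pairing by letter was not tested. Of the context genes, 0 were called as reported, with the covariate, with the replicate block and with WT replicates D and E alone. With no expression filter 5 were called higher, and with DESeq2 25 higher and 1 lower. Leaving out 1 tumour gave 0 to 24 higher, and 1 lower without WT replicate D or without WT replicate E. The 11.2-fold ratio of the pool was 1.30-fold per Igkc count, where WT replicate C was lowest, and 11.2-fold to 12.6-fold otherwise (8.34-fold to 13.1-fold leaving out 1 tumour). The difference of 33.1 detected segments was 14.3 at equal pool size and 23.8 with WT replicates D and E alone. The difference in leading share, -11.2 percentage points, was -5.02 without WT replicate C and -0.50 among kappa segments. Sign changed for 3 named segments when their highest KO tumour was left out: Igkv2-109 (-0.81 without KO replicate D to 3.51 without WT replicate E), Igkv6-17 (-0.041 without KO replicate D to 5.65 without WT replicate A) and Igkv6-25 (-0.060 without KO replicate B to 2.81 without WT replicate A). Small WT pools of 581 to 1696 counts limit the precision of shares there. The causes of these shifts were not tested.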
